A study of Arabidopsis thaliana with 12 samples.

Results

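Transcript levels of 5 nuclear photosynthesis genes of Arabidopsis thaliana, RCA (AT2G39730), PSBY (AT1G67740), PSAN (AT5G64040), LHCB4.1 (AT5G01530) and LHCB4.2 (AT3G08940), were followed across leaves and flowers of wild type and lug-3. They were taken as the probe sets that GEO's platform annotation assigns to these gene symbols. Each gene had 1 probe set of its own, and no probe set shared between several genes included any of them. They are 5 of the 13356 different genes that could be named on the array.

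The study used 1-colour Affymetrix ATH1 arrays, 1 per sample, and its title names targets of LEUNIG (LUG), a transcriptional corepressor, as the subject. The 4 groups were wild-type Ler-0 leaves, lug-3 leaves, wild-type Ler-0 flowers and lug-3 flowers, with 3 arrays each, and the mutation was carried in the same Ler-0 (Landsberg erecta) background. Leaves were mature rosette leaves at growth stage 3.90 and flowers were at stage 6.90, so tissue and stage cannot be told apart. All plants were grown in soil at 20 °C under constant light of 2400 lux after 4 days at 4 °C, and RNA came from pools of 20 plants. According to the labels, lug-3 flowers have sepals with stamen or carpel character, few or no normal petals and fewer stamens, and lug-3 plants have narrower leaves. The tissue samples are therefore mixtures that can differ in organ makeup, and in such bulk samples fewer cells of a type and less RNA per cell cannot be told apart. The labels do not say that the 3 pools of a group were grown separately, so the p-values cover the spread between arrays of a group, which could be technical. In the linear model (limma) this spread is estimated jointly over the 4 groups, not from the compared groups alone.

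The extraction protocol of all 6 flower samples names rosette leaves, while their titles and tissue labels say flowers. Genes of the tapetum, the pollen-feeding layer of the anther, were used as a check. The summed signal of the 3 measured tapetum genes was 470.4 to 2042 on flower arrays and 10.8 to 26.3 on leaf arrays. No probe set is named here for LUG, so its transcript gives no check of the genotype. The ratio of 3' to 5' GAPDH control signal, which rises as RNA is degraded, ranged over 1.71 to 3.44 on wild-type leaf arrays and 1.47 to 1.68 on those of lug-3. On flower arrays it ranged over 1.63 to 2.07 for wild type and 1.65 to 3.10 for lug-3. The 3 arrays with the highest ratio were lug-3 flowers 3 together with wild-type leaf arrays 2 and 3.

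Photosynthesis in plants depends on proteins from both the chloroplast and the nucleus. The 5 genes encode nuclear parts that are imported into the chloroplast and act at successive steps: light capture, the photosystems, and carbon fixation. LHCB4.1 and LHCB4.2 encode forms of CP29, a minor antenna protein that passes excitation energy from the outer light-harvesting complexes to the core of photosystem II. PSBY encodes a small membrane subunit of photosystem II. PSAN encodes a subunit of photosystem I on the lumen side of the membrane, where plastocyanin docks. RCA encodes Rubisco activase, which frees the active site of the carbon-fixing enzyme Rubisco from inhibitory sugar phosphates. Green leaves are the main site of these transcripts, and flowers hold green and non-green organs side by side.

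The values are probe set intensities on a linear scale, called signal here, that the authors had scaled per array. All 5 genes passed the filter on low signal, a signal above 16.4 on at least 3 arrays, with a wide margin. Levels of different genes are not set against each other, because each probe set has its own brightness.

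LHCB4.1 gave signals of 4268, 4498 and 3703 on the 3 wild-type leaf arrays, 4934, 5015 and 4363 on lug-3 leaves, 1626, 1572 and 1982 on wild-type flowers, and 2151, 2369 and 1743 on lug-3 flowers. LHCB4.2 gave 1052, 1327 and 1151 on the wild-type leaf arrays, 1758, 1967 and 1805 on the lug-3 leaf arrays, 235.4, 269.1 and 359.4 on the wild-type flower arrays, and 477.7, 501.2 and 321.6 on the lug-3 flower arrays. For both CP29 genes every leaf array lay above every flower array, and within a tissue the lug-3 mean was above the wild-type mean. For LHCB4.2 the lug-3 and wild-type leaf arrays did not overlap.

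PSBY gave 2578, 3190 and 3013 on the wild-type leaf arrays, 3549, 3517 and 3230 on the lug-3 leaf arrays, 1146, 1142 and 1317 on the wild-type flower arrays, and 1520, 1521 and 1132 on the lug-3 flower arrays. PSAN gave 2108, 2248 and 2019 on the wild-type leaf arrays, 2849, 2536 and 2396 on the lug-3 leaf arrays, 602.5, 680.5 and 962.9 on the wild-type flower arrays, and 1127, 1243 and 904.0 on the lug-3 flower arrays. These photosystem subunit genes shared the order of the CP29 genes, with leaves of lug-3 first, then those of wild type, then flowers of lug-3 and last those of wild type. RCA gave 5832, 6201 and 4881 on the wild-type leaf arrays, 5202, 4771 and 4264 on the lug-3 leaf arrays, 2447, 2363 and 2769 on the wild-type flower arrays, and 2951, 3464 and 2567 on the lug-3 flower arrays. RCA differed from the other genes in that its wild-type leaf mean was above its lug-3 leaf mean.

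**Figure D1:**
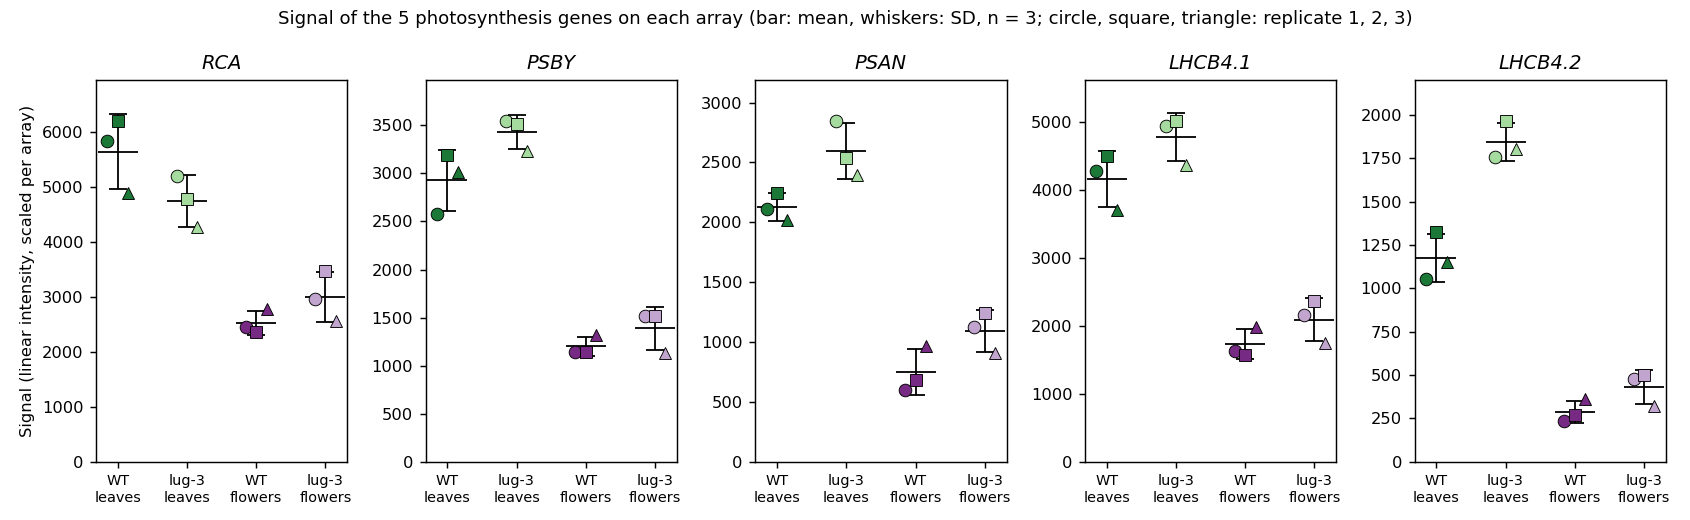
Signal (linear intensity, each axis from 0) of the 5 genes on every array, by group, with the mean and SD of 3 arrays. In all 5 panels the 6 leaf arrays lie above the 6 flower arrays, and the lug-3 flower mean lies above the wild-type flower mean.

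The first comparison was between tissues, where all 5 genes were lower in flowers than in leaves of wild type. The background is wide, since 26.2% of the 17877 probe sets tested were called lower in this comparison. LHCB4.2 fell from 1177 ± 139 to 288.0 ± 64.1 (SD, n = 3), or 24.5% of its leaf level (log2 change -2.02, SE 0.19, limma adjusted p = 2.12e-06). PSAN fell from 2125 ± 115 to 748.7 ± 190 (35.2%, log2 change -1.52, SE 0.17), PSBY from 2927 ± 315 to 1201 ± 99.8 (41.0%, -1.28, SE 0.14) and LHCB4.1 from 4156 ± 409 to 1727 ± 223 (41.5%, -1.27, SE 0.15). RCA fell from 5638 ± 681 to 2526 ± 214, to 44.8% of its leaf level (log2 change -1.15, SE 0.15). None of these 4 had an adjusted p above 2.48e-05. The median over the 5 genes was -1.28, and that over all probe sets tested was 0.06.

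In lug-3 the same 5 genes were again lower in flowers, where 19.4% of all tested probe sets were called lower. LHCB4.2 went from 1843 ± 110 to 433.5 ± 97.6, which is 23.5% of its leaf level (log2 change -2.09, SE 0.19, adjusted p = 2.78e-06). PSBY fell by 1.31 and PSAN by 1.25 on the log2 scale, leaving 40.5% and 42.1% of the leaf level. LHCB4.1 was 2.29-fold lower, at 43.8% of its leaf level (adjusted p = 3.14e-05). RCA fell by 0.67 (SE 0.15, adjusted p = 0.00225), from 4745 ± 469 to 2994 ± 450, or 63.1% of its leaf level.

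The leaf and flower arrays of each genotype did not overlap for any of the 5 genes, beside 28.8% of all probe sets separated in this direction in wild type and 23.6% in lug-3. For LHCB4.2 the lowest of the 6 leaf signals was 1052 and the highest of the 6 flower signals 501.2. The lowest leaf signal was 1.70 times the highest flower signal for PSBY, 1.63 times for PSAN, 1.56 times for LHCB4.1 and 1.23 times for RCA. The size of the tissue difference depended on how arrays were put on a common scale. Leaf arrays were brighter at the top, with a 99th percentile of signal of 1628 to 1823 against 1314 to 1485 on flower arrays, and quantile normalization makes these equal. With it the wild-type change was -0.46 for RCA, -0.76 for LHCB4.1, -0.91 for PSBY, -1.28 for PSAN and -1.91 for LHCB4.2, all still called. In lug-3 it was -0.17 for RCA, which lost its call (adjusted p = 0.221), -0.69 for LHCB4.1, -0.86 for PSBY, -0.89 for PSAN and -1.85 for LHCB4.2. Median centring gave larger changes, in wild type -1.45 for RCA, -1.56 for LHCB4.1, -1.57 for PSBY, -1.82 for PSAN and -2.31 for LHCB4.2, and in lug-3 -0.95 for RCA, -1.48 for LHCB4.1, -1.53 for PSAN, -1.59 for PSBY and -2.38 for LHCB4.2, all called. Quantile normalization moved the median of all probe sets by -0.15 and median centring by -0.30 in the wild-type comparison, and the split of 5897 higher and 4685 lower calls became 5071 and 5843, and 4121 and 7228. In lug-3 the shifts were -0.15 and -0.28, and the split of 5672 and 3467 became 4505 and 4456, and 3362 and 5654.

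The second comparison asked whether the genes change in lug-3 leaves. Of the 5, only LHCB4.2 was called, and it rose from 1177 ± 139 to 1843 ± 110, a 1.57-fold difference (log2 change 0.65, SE 0.19, 95% interval 0.23 to 1.06, limma adjusted p = 0.0296). That is 1 of 5 genes, beside 11.3% of all probe sets called higher in lug-3 leaves, so the count is near the background. The call was lost when any of 4 leaf arrays was left out, the wild-type arrays 1 and 3 or the lug-3 arrays 2 and 3 (adjusted p 0.0705 to 0.0929), with quantile normalization (0.0624) and with the GAPDH ratio as a covariate (0.131). Its log2 change stayed between 0.54 and 0.80 under all alternatives run.

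The other genes gave intervals that include no change in leaves. PSAN had a log2 change of 0.28 (95% interval -0.10 to 0.67, adjusted p = 0.273), PSBY 0.23 (-0.08 to 0.54, adjusted p = 0.266), LHCB4.1 0.20 (-0.12 to 0.52, adjusted p = 0.360) and RCA -0.25 (-0.56 to 0.07, adjusted p = 0.253). The 3 lug-3 arrays lay above the 3 wild-type arrays for PSBY, PSAN and LHCB4.2, while those of LHCB4.1 and RCA overlapped. Over all probe sets tested 16.9% were separated in this direction. Of the wild-type leaf arrays with a high GAPDH ratio, array 2 was the highest of its group for all 5 genes and for 8 of 12 other photosynthesis genes, against 31.8% of all probe sets. Array 3 was the lowest for 3 of the 5 and 3 of the 12, against 29.1%.

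The third comparison was between lug-3 and wild-type flowers. All 5 genes had a higher mean in lug-3, but limma called none of them, beside 5.27% of all probe sets called higher. LHCB4.2 went from 288.0 ± 64.1 to 433.5 ± 97.6 (log2 change 0.57, 95% interval 0.16 to 0.99, adjusted p = 0.0748). PSAN went from 748.7 ± 190 to 1091 ± 172 (0.56, 0.17 to 0.94, adjusted p = 0.0611). LHCB4.1 had a log2 change of 0.27 (-0.05 to 0.59, adjusted p = 0.280), RCA of 0.24 (-0.08 to 0.55, adjusted p = 0.341) and PSBY of 0.20 (-0.11 to 0.51, adjusted p = 0.416). The groups overlapped for all 5 genes, whereas 20.4% of all tested probe sets had every lug-3 flower array above every wild-type one.

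For RCA, PSAN, LHCB4.1 and LHCB4.2 the overlap was only between lug-3 flowers 3 and wild-type flowers 3. For PSBY lug-3 flowers 3 lay below every wild-type flower array. On lug-3 flowers 1 and 2 the signal of each of the 5 genes was above every wild-type flower array. How many of all probe sets show this order on the same arrays was not counted, so it has no background here. Wild-type flowers 3 was the highest wild-type flower array for all 5 genes, with a GAPDH ratio of 2.07, the highest of its group. It was also the highest for 11 of 12 other photosynthesis genes, against 39.7% of all probe sets tested. Lug-3 flowers 2, at a ratio of 2.02, was the highest lug-3 array for all 5 genes and 5 of those 12, against 29.0%. Lug-3 flowers 3, the flower array of highest GAPDH ratio (3.10), was the lowest lug-3 array for all 5 genes and for 6 of those 12, against 30.9% of all probe sets. It reached 112% of the wild-type flower mean for LHCB4.2, while lug-3 flowers 1 and 2 reached 166% and 174%. For PSAN the corresponding values were 121%, 151% and 166%, and for PSBY they were 94.2%, 126% and 127%. The genes' values without this array and with the GAPDH ratio in the fit follow.

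**Figure D2:**
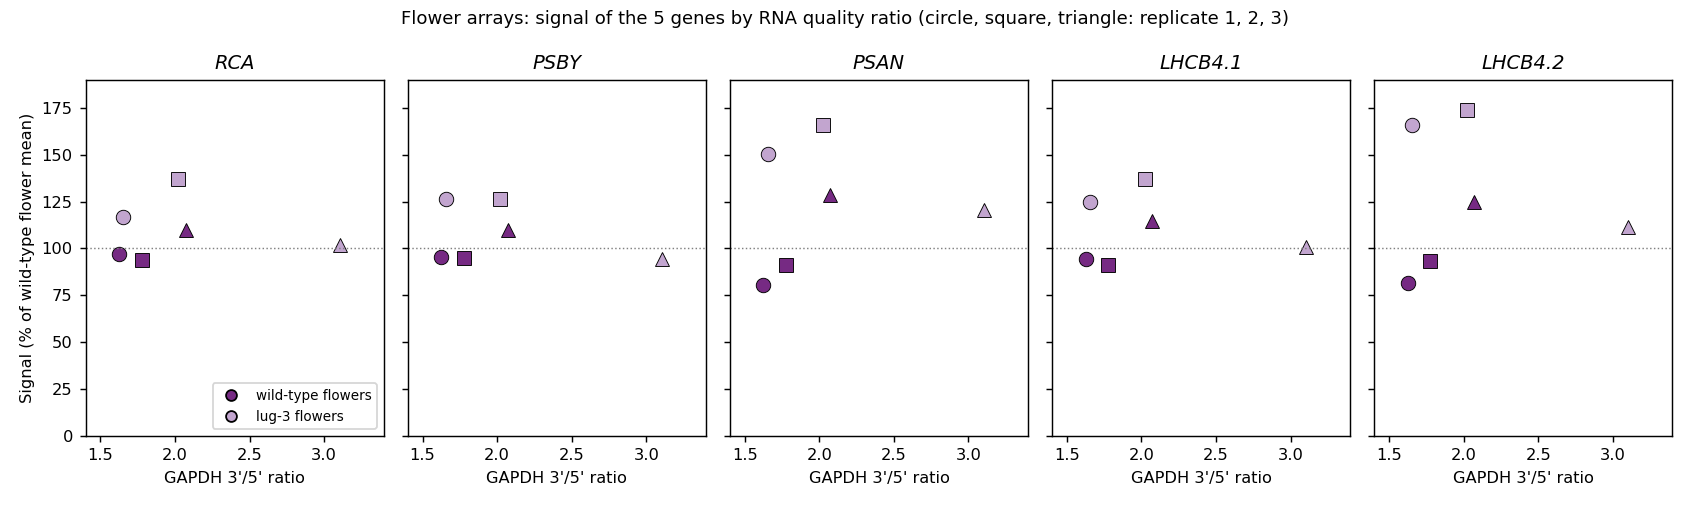
Signal of the 5 genes on the 6 flower arrays, as a percent of the wild-type flower mean, against the 3' to 5' GAPDH ratio of the array. Lug-3 flowers 3, at a ratio of 3.10, lies below lug-3 flowers 1 and 2 in every panel, and wild-type flowers 3 lies above wild-type flowers 1 and 2.

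Without lug-3 flowers 3, LHCB4.2 had a log2 change of 0.77 (adjusted p = 0.0183) and PSAN of 0.68 (adjusted p = 0.0403), so that 2 of the 5 genes were called, beside 4.11% of all probe sets called higher. Without wild-type flowers 3 the values were 0.74 (adjusted p = 0.0352) and 0.75 (adjusted p = 0.0128), beside 4.34% called higher. For all 5 genes these were the arrays of their group nearest the other genotype, so leaving either out had to widen the difference. No other single array left out gave a call for either gene. Without wild-type flowers 1 the changes were 0.44 for LHCB4.2 (limma adjusted p = 0.267) and 0.41 for PSAN (0.237). Without wild-type flowers 2 they were 0.54 (0.210) and 0.50 (0.199). The same 2 genes were called without the 3 arrays of highest GAPDH ratio (6.41% of all probe sets called higher), with an intensity trend in the variance (6.31%) and with a pseudocount of 32 (6.50%). Array weights, which give less weight to arrays that lie far from their group, put all 5 genes past the threshold (log2 changes 0.31 to 0.73, adjusted p at most 0.0451), beside 15.5% of all probe sets called higher. With the GAPDH ratio as a covariate none was called, and LHCB4.2 had 0.59 (adjusted p = 0.0889) and PSAN 0.58 (adjusted p = 0.0703).

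Markers of other floral cells moved with the genotype. In lug-3 flowers all 6 measured pollen genes, all 3 tapetum genes and both ovule and seed coat genes were called lower, beside 6.75% of all probe sets called lower. The summed pollen signal ranged over 912.5 to 1183 in wild-type and 400.2 to 469.9 in lug-3 flowers, that of the tapetum 1323 to 2042 and 470.4 to 635.6, and that of ovule and seed coat 307.9 to 427.9 and 41.9 to 45.4. No marker of these lists was at 0 on any array. The part of organ makeup in these marker shifts and in the values of the photosynthesis genes was not tested.

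**Figure D3:**
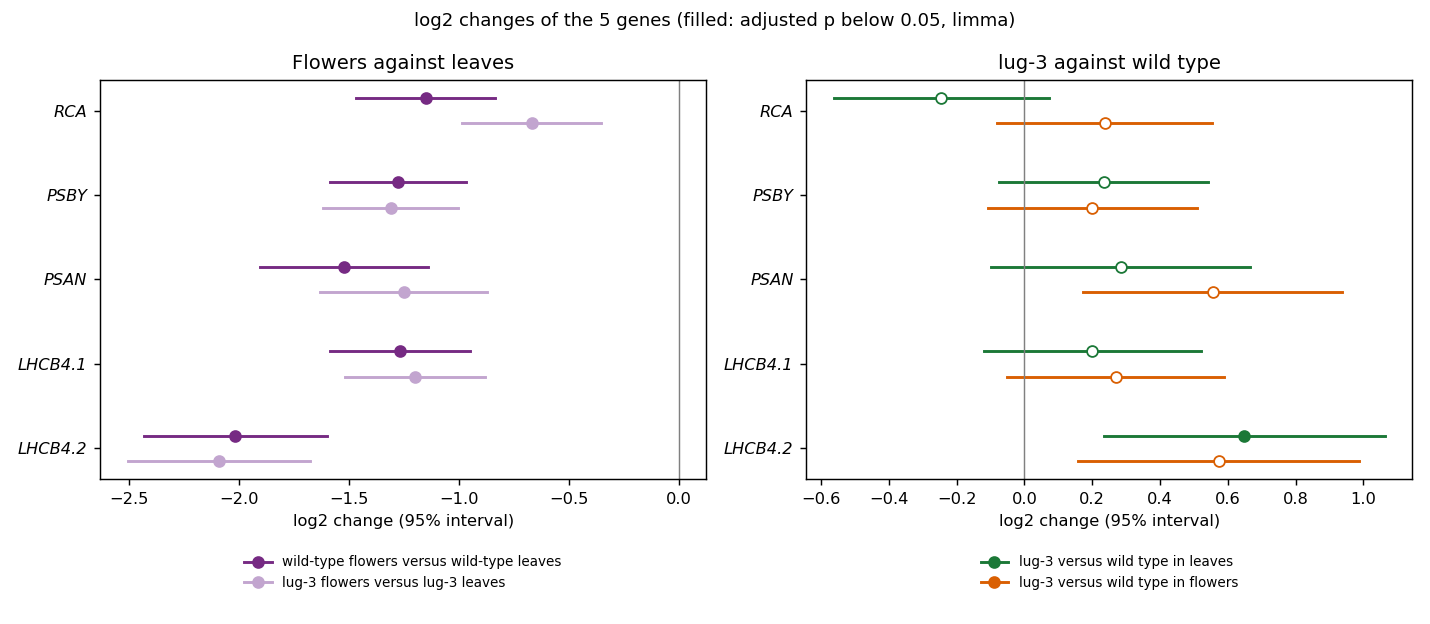
log2 changes of the 5 genes with 95% intervals, flowers against leaves on the left and lug-3 against wild type on the right, with filled points where the adjusted p was below 0.05. All 10 tissue changes are filled and negative, and LHCB4.2 in leaves is the only filled point among the lug-3 changes.

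The change in lug-3 was also compared between the tissues. Limma called none of the 5 genes in this test, beside 23.0% of all probe sets called. RCA had a change 0.48 higher on the log2 scale in flowers than in leaves (95% interval 0.03 to 0.93, adjusted p = 0.111), from a negative value in leaves to a positive one in flowers. With array weights this difference was 0.64 and was called (adjusted p = 0.0257), the only setting that did so, beside 31.5% of all probe sets called in it. For the other genes the difference was 0.27 for PSAN (-0.27 to 0.81), 0.07 for LHCB4.1 (-0.38 to 0.52), -0.03 for PSBY (-0.47 to 0.40) and -0.08 for LHCB4.2 (-0.66 to 0.51).

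LHCB4.1 and LHCB4.2 encode the same kind of antenna protein, so their relative signal was followed within each array as the difference of their log2 values. This cancels a constant scaling factor of the array but says nothing about which transcript is more abundant. Scaling that depends on intensity is not cancelled, and the difference was not recomputed with quantile normalization. With that normalization the lug-3 change in leaves was 0.54 for LHCB4.2 and 0.26 for LHCB4.1, against 0.65 and 0.20 without it. In flowers the changes were 0.61 and 0.34, against 0.57 and 0.27. The difference was -2.01, -1.75 and -1.68 on wild-type leaves, -1.48, -1.35 and -1.27 on lug-3 leaves, -2.75, -2.51 and -2.44 on wild-type flowers, and -2.15, -2.22 and -2.41 on lug-3 flowers. LHCB4.2 was thus lower relative to LHCB4.1 on every flower array than on any leaf array. In both tissues it was higher relative to LHCB4.1 on every lug-3 array than on any wild-type array, though lug-3 flowers 3 (-2.41) and wild-type flowers 3 (-2.44) nearly met.

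The mean difference between lug-3 and wild type was 0.45 in leaves and 0.30 in flowers, and that between flowers and leaves was -0.75 for wild type and -0.89 for the mutant. The exact two-sided permutation test gave p = 0.1 for each of these 4 comparisons, also after Benjamini-Hochberg adjustment, which is the smallest value that 3 arrays against 3 allow. How far the probes of each gene also bind transcripts of the other was not analysed here.

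**Figure D4:**
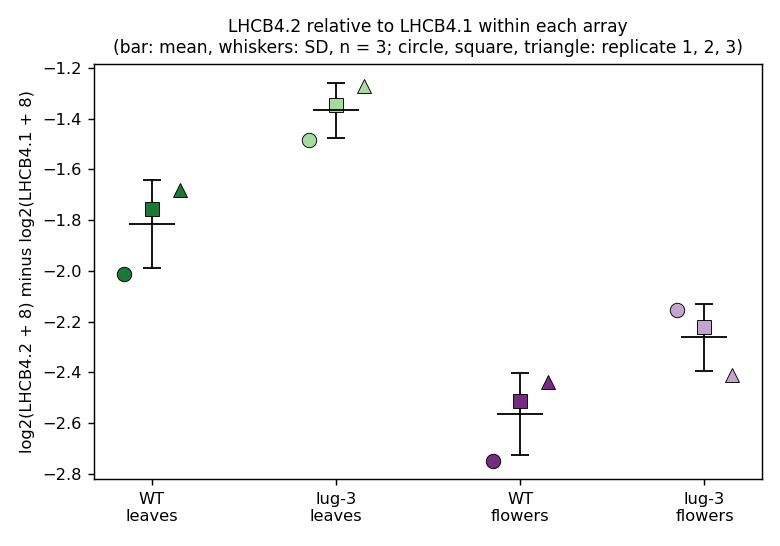
Difference of the log2 values of LHCB4.2 and LHCB4.1 on each array, by group, with the mean and SD of 3 arrays. The groups do not overlap: the lug-3 leaf arrays are highest (-1.48 to -1.27) and the wild-type flower arrays lowest (-2.75 to -2.44).

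The profiles over the 12 arrays were compared as the root mean square difference of log2 values after each profile was centred on its own mean, against 10012 other tested probe sets with 1 gene. The nearest profile to LHCB4.1 was that of ATPC1, which encodes a subunit of the chloroplast ATP synthase (0.105), and PSBY was second (0.106). ATPC1 was also the nearest to PSBY (0.103). The nearest to PSAN was AT2G44920 (0.0968) and the nearest to RCA was AT2G26500 (0.0989). LHCB4.2 had no neighbour so close, with AT5G37360 (0.198) and CP5 (0.200) as its nearest. Its CP29 partner LHCB4.1 stood at 0.469, in place 170, while LHCB4.2 held place 1326 from LHCB4.1. Profiles were not scaled to an equal size of change, so the larger tissue change of LHCB4.2 adds to its distances. Distance here does not separate the shape of a profile from its size. Second places were held by AT4G28025 for PSBY (0.103), AT1G74440 for PSAN (0.133) and AT3G61540 for RCA (0.129).

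Beyond these genes, 91 further nuclear genes of light harvesting, the photosystems, electron transport, carbon fixation and chlorophyll synthesis were listed, of which 12 had a named probe set and all 12 were tested. In wild type 9 of them were lower in flowers, 1 was higher and 2 were not called, beside 26.2% of all probe sets called lower and 33.0% called higher. PRK, phosphoribulokinase, which makes the sugar that Rubisco carboxylates, fell by 1.72 on the log2 scale (3566 ± 271 to 1078 ± 132). SBPASE, sedoheptulose-bisphosphatase of the same cycle, fell by 1.38, ATPC1 by 1.35 and PSBW, a photosystem II subunit gene, by 1.19. PSAE-1, for a stromal subunit of photosystem I, fell by 1.02. The antenna gene LHCB4.3 fell by 1.00, PSB27, for a photosystem II assembly protein, by 0.83, the chlorophyll synthesis gene CHLM by 0.68 and AT1G56190, for a phosphoglycerate kinase, by 0.47. ATPC2, a second gene for the ATP synthase subunit of ATPC1, had low signals (27.3 ± 15.3 in leaves, 48.7 ± 4.55 in flowers) and was higher in flowers by 0.77. That call was lost in 5 settings, namely both other scalings, a fit of only the arrays compared, and without wild-type leaves 1 or wild-type flowers 2 (adjusted p 0.0509 to 0.109). The calls of LHCB4.3, CHLM and AT1G56190 were lost without the 3 arrays of highest GAPDH ratio (-0.74, -0.26 and -0.29), and that of AT1G56190 also with the GAPDH covariate and without wild-type leaves 2, wild-type flowers 1 or wild-type flowers 2.

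In lug-3 11 of the 12 were lower in flowers and ATPC2 was not called, beside 19.4% of all probe sets called lower. The calls took in GSA1 (-0.72) and PORB (-1.50), which encode enzymes of chlorophyll synthesis and were not called between the wild-type tissues. LHCB4.3 (-0.54) was the weakest, with an adjusted p of 0.0403, and lost its call in 9 settings (adjusted p 0.0508 to 0.322), among them the replicate block (0.0551), quantile normalization and the removal of lug-3 leaves 1, lug-3 flowers 1, lug-3 flowers 2 or wild-type flowers 1.

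In lug-3 leaves 3 of the 12 rose and none fell, beside 11.3% and 11.0% of all probe sets. PORB, protochlorophyllide oxidoreductase, which turns protochlorophyllide into chlorophyllide in the light, gave signals of 456.6 to 810.2 on the wild-type and 1135 to 2105 on the lug-3 leaf arrays. All 3 lug-3 arrays were above the wild-type arrays (log2 change 1.31, SE 0.27, limma adjusted p = 0.00540). GSA1, glutamate-1-semialdehyde aminotransferase at the start of the pathway, rose from 208.0 ± 10.5 to 343.2 ± 23.8 (0.70, SE 0.11, adjusted p = 0.00116). PSB27 rose from 1484 ± 144 to 2177 ± 313 (0.55, SE 0.14, adjusted p = 0.0176). The calls of PORB (0.96, adjusted p = 0.0922) and PSB27 (0.63, adjusted p = 0.0659) were lost without the 3 arrays of highest GAPDH ratio, when wild-type leaves 1 alone stood for its group. That lone array is then assumed to vary like the other groups. The PSB27 call was also lost in a fit of only the leaf arrays (0.0652) and without wild-type leaves 3 (0.0532) or lug-3 leaves 2 (0.0748). The 9 genes not called had values from -0.21 (PRK) to 0.45 (CHLM), 3 of them negative (PRK, LHCB4.3 at -0.20 and SBPASE at -0.07).

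In lug-3 flowers limma called none of the 12, beside 5.27% of all probe sets called higher and 6.75% called lower. With quantile normalization 2 of the 12 were called and with array weights 5. Over all probe sets these settings called 13.3% and 28.3% in either direction. Their median log2 change was 0.24, that of the 5 genes first described was 0.27, and that of all probe sets tested was 0.05. The highest were PSB27 (0.34), PRK (0.34) and ATPC1 (0.29), and the lowest were GSA1 and ATPC2 (both -0.25).

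**Figure D5:**
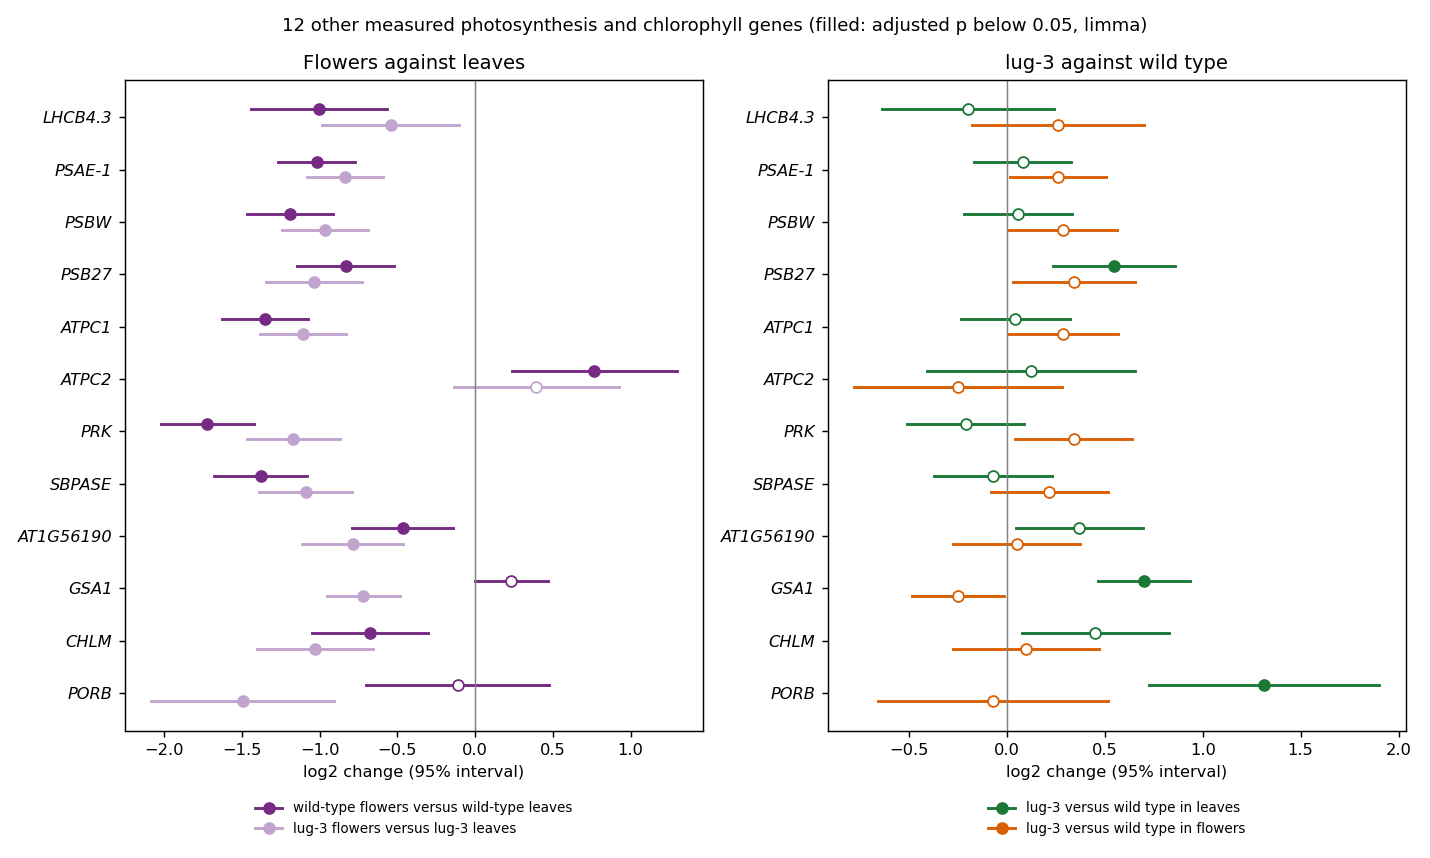
log2 changes with 95% intervals of the 12 other measured genes, flowers against leaves on the left and lug-3 against wild type on the right, with filled points where the adjusted p was below 0.05. In leaves of lug-3 the filled points are PSB27 (0.55), GSA1 (0.70) and PORB (1.31), and no point is filled in flowers of lug-3.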

How the data were processed

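The deposited table holds probe set intensity values on a linear scale, with MAS5 and GCOS named in the submitters' processing notes. No version or other step is stated in the labels. The authors had scaled each array, since the mean signal after trimming 2% at each end was 100.0 throughout, and no further scaling was applied. Control probe sets (64 of 22810) were left out. Of the other 22746, 13513 had 1 gene in GEO's platform annotation, 503 had several and 8730 are unnamed here. Of those with 1 gene, 13436 matched a RefSeq gene table (assembly TAIR10.1) through their Entrez ID.

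Signals were transformed as log2(signal + 8), so changes are on the log2(signal + pseudocount) scale and understate those of low genes. The filter of 16.4 is the pooled 30th percentile and left 17877 probe sets. One linear model for the 12 arrays, with a mean for each of the 4 groups, was fitted in limma 3.58.1 (R 4.3.3; 8 residual and 3.79 prior degrees of freedom) and checked on simulated data. Calls are at a Benjamini-Hochberg adjusted p below 0.05 over all probe sets tested, and intervals are limma's 95% intervals. The number of arrays limits the precision. Single values per array were compared with an exact permutation test in scipy 1.17.1.

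The 5 genes and the gene lists were chosen with earlier results of these data known. The named genes are the 5 genes, the called genes of the photosynthesis lists and the 2 nearest profiles of each of the 5. Genes not called were added after their values were seen. Marker lists are given as sums and counts over all their genes with a named probe set. Lists of floral organ identity, chlorophyll breakdown and photosynthesis regulators had no named probe set, and 1 guard cell gene was called only between lug-3 tissues. The alternatives were 2 pseudocounts, 2 filters, 2 scalings, only the arrays compared, the replicate block, array weights, an intensity trend, the GAPDH covariate, leaving out the 3 arrays of highest GAPDH ratio and leaving out each array.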

Additional observations from a re-analysis of the deposited data

Results flagged for a closer look

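For 2 of the 12 other photosynthesis and chlorophyll genes the interaction term of the limma fit was called, beside 23.0% of all probe sets called in this test, so the count is not above the background. For GSA1 it was 0.95 lower in flowers on the log2 scale (-0.95, SE 0.15, adjusted p = 0.00168), with a rise in leaves (0.70) and -0.25 in flowers. For PORB it was 1.38 lower (-1.38, SE 0.38, adjusted p = 0.0222), with 1.31 in leaves and -0.07 in flowers. The PORB call was lost with the GAPDH covariate (-1.21, adjusted p = 0.126), without the 3 arrays of highest GAPDH ratio (-0.91, adjusted p = 0.182) and without lug-3 leaves 2, wild-type flowers 3 or lug-3 flowers 3 (adjusted p 0.0505 to 0.0542).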

How the results depend on the processing

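The tissue calls of the 5 genes held under all 24 alternatives in wild type and, in lug-3, under all but quantile normalization, with 4 of 5. In lug-3 leaves the count of 1 became 0 with quantile normalization and with the GAPDH covariate, and 0 to 1 when single arrays were left out. In lug-3 flowers the count of 0 became 2 with a pseudocount of 32, 1 with the stricter filter and 1 with quantile normalization. It became 5 with array weights, 2 with an intensity trend and 0 to 2 without single arrays. Leaving out the arrays of highest GAPDH ratio took only lug-3 flowers 3 from the flower arrays. For the other 12 genes the counts without single arrays were 2 to 4 in lug-3 leaves, 0 in lug-3 flowers, 8 to 10 and 10 to 11 between tissues, and 1 to 3 for the difference of the lug-3 change between tissues, where leaving out lug-3 leaves 2 gave the 1. In lug-3 flowers that count of 0 became 2 with quantile normalization and 5 with array weights. With array weights the difference between tissues was called for 1 of the 5 genes and 5 of the 12, beside 31.5% of all probe sets. Values near 0 of this difference changed sign. For LHCB4.2 it was 0.0656 with quantile normalization, 0.11 with array weights and -0.21 to 0.12 without single arrays. For PSBY it was 0.0457 with quantile normalization, 0.13 with array weights, 0.000381 with the covariate and -0.10 to 0.11 without single arrays, and for LHCB4.1 -0.0285 to 0.19. The cause was not tested.

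Replicate numbers are shared by the groups, but same-numbered arrays did not deviate together (correlations -0.11 to 0.18). With the replicate block the counts of the 5 genes were 1, 0, 5, 5 and 0, as without it, and the 11 of 12 in lug-3 tissues became 10. The same number gave the highest correlation in 12 of 36 matches of an array with another group.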

Other observations

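RCA was followed relative to the other 4 genes within each array, as its log2 value minus their mean log2 value. This measure was chosen after the values were seen and was not tested. It was 1.11 to 1.39 in wild-type leaves and 0.61 to 0.76 in lug-3 leaves, so the groups did not overlap. In flowers the wild-type arrays had 1.63 ± 0.13 and the mutant arrays 1.46 ± 0.10 (SD, n = 3), and the groups overlapped.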
